A study of Rattus norvegicus with 8 samples.

Results

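The transcripts of the mitochondrial genome were described here from every polyadenylation site that the site table placed on the rat mitochondrial chromosome. These were 82 of 73922 sites (0.111%). They held 736825 reads, which was 5.52% of all reads, and they carried the symbols of 24 genes (13 protein-coding, 9 tRNA and 2 rRNA genes). The table came from WTTS-seq, an assay that counts sequencing reads at the 3′ ends of polyadenylated RNA. Neighbouring read ends had been merged into clusters, and each cluster is called a site here and is named by its coordinate in the table.

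Total RNA came from hypothalamus tissue of adult Long-Evans rats, all male. The control group held 4 rats kept on standard rodent chow, and the obesity group held 4 rats with free access to a high fat diet and labelled diet-induced obesity. Tissue was taken after 36 days of diet in both groups, and body weights were not analysed here. The libraries held 1417531 to 1957726 reads each, of which 75245 to 117195 were mitochondrial. Of 16 hypothalamus markers 13 were measured, with a summed level of 1235 to 1671 CPM (reads scaled to a common library size) in control, against 1033 to 1310 in obesity. Of these edgeR called 0 (0% of all genes). By unadjusted p under 0.05, 2 were higher and 3 lower, against 2.54% and 2.58% of all genes. Among them were Sim1 (log2 fold change 2.03, SE 0.82), Crh (1.72, SE 0.74), Sst (-1.36, SE 0.54) and Oxt (-0.74, SE 0.30). The pituitary gene Gh1 had 87 reads in obesity library 2 and 0 or 1 in every other library. Of the other measured pituitary markers, Lhb had 58 reads there and 0 to 9 elsewhere, while Cga had 11 there and 0 to 71 elsewhere. The choroid plexus gene Ttr had 144 reads in obesity library 4 and at most 2 elsewhere. These are bulk samples, so fewer cells of a type and less RNA per cell cannot be told apart.

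As background, the mitochondrial genome encodes core subunits of the respiratory chain and of ATP synthase, together with the rRNAs and tRNAs that translate them inside the organelle. Both of its strands are transcribed into long RNAs that are cut into single transcripts, often at the tRNAs between the genes, and most of the products receive short poly(A) tails. The level of each mature RNA therefore depends on cutting and stability as well as on transcription. Neurons depend strongly on oxidative phosphorylation, whose other subunits are encoded in the nucleus.

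The 2 rRNA genes took most of the mitochondrial reads, at 71.7% in all libraries together. Rnr2, the large ribosomal RNA, held 57.1% and Rnr1, the small ribosomal RNA, held 14.6%. By the gene assigned to each site, reads in the sense direction of protein-coding genes made up 21.4% at 31 sites. Those in the sense direction of tRNA genes made up 5.93% at 11 sites. Only 11 sites reached 1% of the mitochondrial reads, and they held 92.5% of them. At the other end, 57 sites were each under 0.1%, and 28 sites had fewer than 100 reads over all libraries. All 82 sites had at least 30 reads in total, and 65 of them had a read in every library. Reads were not divided by the length of a gene, so the order below is an order of reads and not of molecules per length.

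Among the protein-coding genes, ATP6, a subunit of ATP synthase, had the most reads, at 5.07% of the mitochondrial total. COX2 followed at 3.68%, ND5 at 3.51%, COX1 at 2.47%, CYTB at 1.86%, ND2 at 1.4% and COX3 at 1.39%. This order depends on how clusters were assigned to genes. The ATP6 reads were those of 1 cluster of 1359 bases, which also covered the antisense sites assigned to COX3. The sense reads of COX3 were those of 1 cluster of 151 bases. COX1, COX2 and COX3 are the mitochondrial subunits of cytochrome c oxidase, CYTB belongs to complex III, and the ND genes encode subunits of complex I. The complex I subunits ND1 and ND3 held 0.958% and 0.673%, ND4 held 0.213%, and ND6 held 0.137%. The clusters assigned to the tRNA genes Trnw and Trnp held 3.85% and 1.79%. These clusters spanned 598 and 722 bases, so their reads need not all be ends of the tRNAs. The Trnw coordinate, 4687, lay inside an antisense cluster assigned to ND2 (4662 to 4800), so reads of ND2 may be counted under Trnw. The other tRNA genes held between 0.00624% and 0.0835% each, with Trnk lowest and Trne highest. For ATP8, ND4L and Trnk the strand with most reads was the antisense strand, so the gene totals of these genes were antisense reads (282, 149 and 46 in all).

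**Figure D1:**
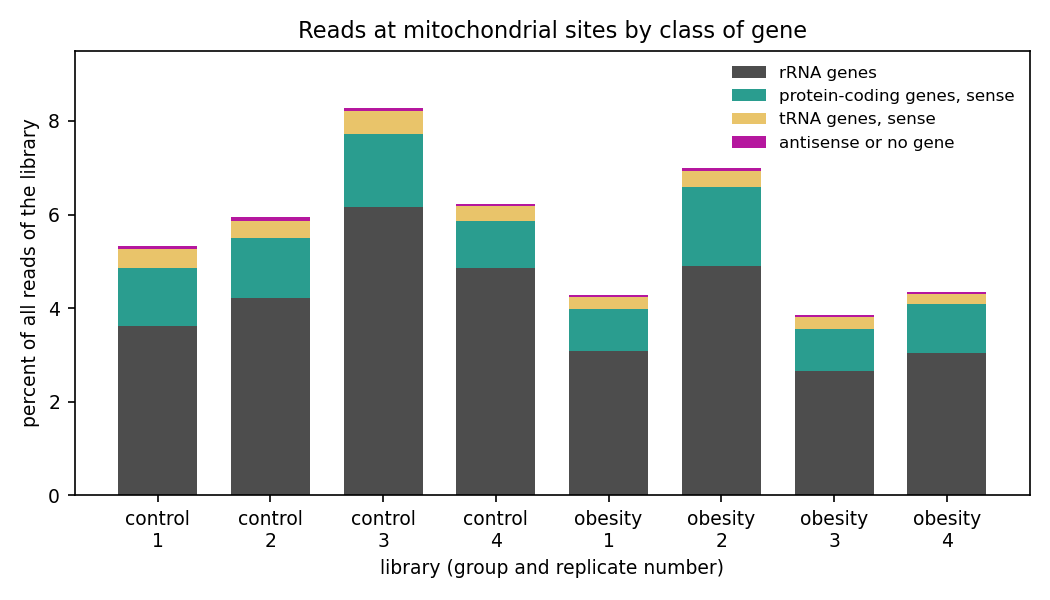
Percent of all reads of a library that lay at mitochondrial sites, with 1 stacked bar for each library (4 control and 4 obesity), divided by class of gene. The bars run from 3.85% to 8.27%. The rRNA part is the largest in every bar, and the bar of obesity library 2 is taller than those of the other obesity libraries.

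The gene name of a site was the one that the table assigned, and clusters on the 2 strands often covered the same bases. The chromosome carried 36 plus-strand and 46 minus-strand sites. The plus-strand sites all ran in the sense direction of their genes. Of the minus-strand sites 9 were sense to ND6 or to tRNA genes encoded on that strand, 36 were antisense to their assigned gene, and 1 had no gene. A minus-strand cluster overlapped a plus-strand cluster in 34 of 46 cases. The plus-strand Trnw cluster (chromosome MT, coordinates 4415 to 5012) covered 3 antisense sites assigned to ND2, and the ATP6 cluster (7844 to 9202) covered the 3 antisense sites assigned to COX3. The ND5 cluster from 12920 to 14089 covered both ND6 sites. The sequence and annotation of this chromosome were not used here, so sites were not placed against the ends of genes, and priming inside A-rich stretches was not tested.

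Mitochondrial sites were also wider than nuclear ones. Their clusters had a median width of 52.5 bases against 13 for the 73840 nuclear sites. Deep sites showed the same order, since sites with at least 1000 reads had a median of 343.5 bases on the mitochondrial chromosome (24 sites) and 33 in the nucleus (1310 sites). The widest cluster was that of Rnr2 at 1243, which spanned 1382 bases from 1086 to 2467. Of the mitochondrial sites 8 were wider than 500 bases, while 1 nuclear site was. A mitochondrial site was thus often a stretch of read ends and not a single end, which bears on each site value below.

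The minus strand held 3.14% of mitochondrial reads. Most of them lay in the Trnp cluster (15343 to 16064), which held 48.3% to 64.1% of the minus-strand reads of a library. Trnp had 1800, 1604, 2010 and 1942 reads in the control libraries (in the order 1 to 4, as in all lists of values here). In the obesity libraries it had 1579, 1421, 1623 and 1230. Antisense reads were 0.966% of the mitochondrial reads and came from 12 genes. Of the 36 antisense sites 10 were assigned to ND5, and the deepest antisense site was ND5 at 12913 with 1435 reads. The antisense ND2 site at 4685 stood out by library number rather than by group. It had 456 reads in control library 2 and 211 in obesity library 2, and 45 to 103 reads in the other libraries.

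The share of library reads at mitochondrial sites was 5.32%, 5.94%, 8.27% and 6.23% in the control group. The obesity group had 4.29%, 6.99%, 3.85% and 4.34%. The widest 95% Wilson interval of a library ran from 8.22% to 8.31%, which covers counting error only, as reads carried no molecular identifiers. The groups overlapped because obesity library 2 lay above 3 of the control libraries, and the obesity mean was lower by 1.57 percentage points. The share was lower in obesity in 3 of the 4 same-numbered pairs. Without control library 3 the difference was -0.963 points, and without obesity library 2 it was -2.28 points. The rRNA genes took 3.62%, 4.21%, 6.16% and 4.85% of library reads in control against 3.08%, 4.90%, 2.65% and 3.04% in obesity. Sense reads of protein-coding genes took 1.24%, 1.28%, 1.57% and 1.01% against 0.898%, 1.69%, 0.895% and 1.04%.

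The makeup of the mitochondrial reads also overlapped between groups. The rRNA genes held 68.1% to 77.8% of them in control against 68.7% to 72.0% in obesity. For protein-coding sense reads the control range was 16.2% to 23.3% and the obesity range 21.0% to 24.2%. The minus strand held from 2.71% to 3.21% in control, against 2.78% to 3.75% in obesity. Rnr1 had 31.0, 17.9, 25.6 and 18.02 reads for every 100 Rnr2 reads in control and 25.7, 28.8, 30.9 and 32.2 in obesity. The rRNA ratio was thus more even in obesity, but its range lay mostly inside that of control.

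At the level of genes, edgeR called 0 of 24 mitochondrial genes at an adjusted p under 0.1, with 0% of all 12255 genes called. DESeq2 also called 0 of the 24 (0.0327% of all genes). By unadjusted p under 0.05 there were 4 mitochondrial genes (16.7%) against 5.12% of all genes, 1 higher (2.54% of all genes) and 3 lower (2.58%). The log2 fold change was below 0 for 19 of the 24 genes (79.2%) and for 49.9% of all genes. ND6 was the higher of these, with a log2 fold change of 0.87 (SE 0.29, edgeR quasi-likelihood test, adjusted p = 0.921). The lower ones were Trnw at -0.60 (SE 0.21), COX3 at -0.58 (SE 0.25) and Rnr2 at -0.49 (SE 0.22). All 11 genes with at least 1% of mitochondrial reads had a log2 fold change below 0, from -0.60 for Trnw to -0.01 for ATP6, but with mitochondrial reads as the library size 8 of them (all except Rnr2, Trnw and COX3) lay above 0. ATP6, COX1, CYTB, ND2 and Rnr1 also lay above 0 when some library or same-numbered pair was left out, and ATP6 under 3 further settings. The levels of no mitochondrial gene in CPM were separated between groups, against 3.45% of all genes.

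Libraries with the same replicate number deviated together, so a fit with that number as a block was also made. It called Trnw lower (log2 fold change -0.59, SE 0.13, edgeR adjusted p = 0.0727), as 1 of 24 mitochondrial genes against 0.277% of all genes. Trnw here is 1 wide cluster, and its coordinate lay inside an antisense cluster assigned to ND2. The call is thus of this cluster and need not be of the tRNA. Trnw had 5059, 4430, 4496 and 2796 reads in control and 2683, 3143, 3432 and 2293 in obesity, so the highest obesity value lay above the lowest control value. ND6 did not pass in this fit (log2 fold change 0.85, SE 0.22, adjusted p = 0.132). The call of Trnw ended without the libraries numbered 1, 3 or 4. Without those numbered 2 the blocked fit called 7 mitochondrial genes, namely ND6 higher and Rnr2, Trnw, Trnp, COX2, COX3 and ND5 lower, among 563 of all genes. Without those numbered 1 it called Rnr2 (edgeR adjusted p = 0.0759) among 65 of all genes, and without those numbered 3 it called ND6 (adjusted p = 0.0928) among 8.

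**Figure D2:**
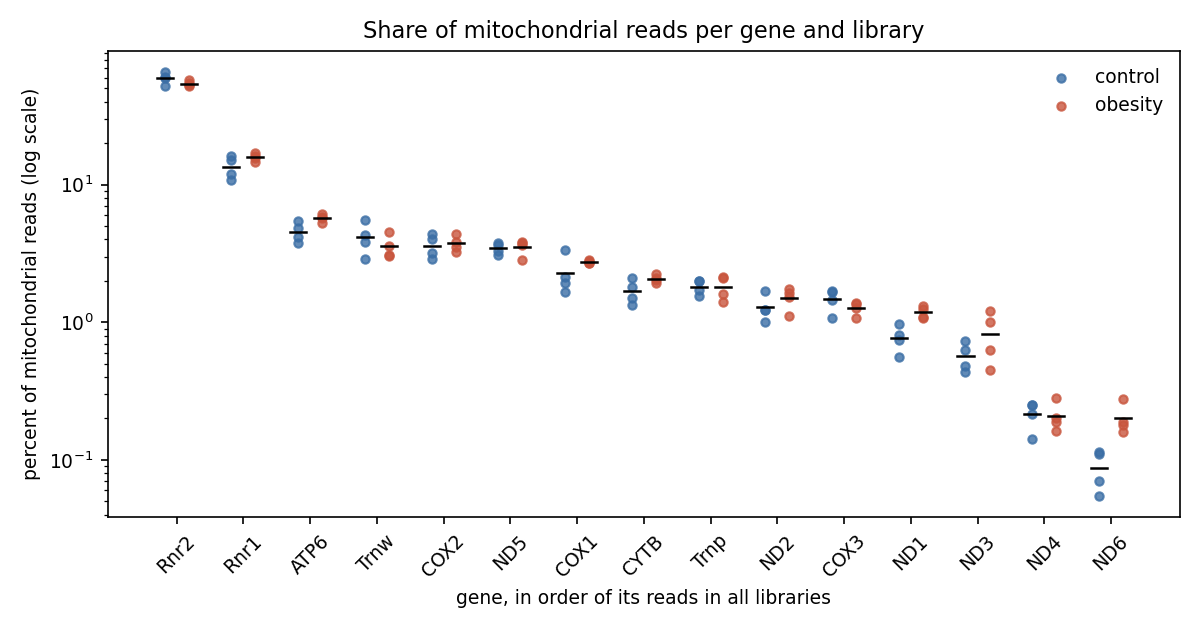
Share of mitochondrial reads per gene on a log axis, with a point for each library and a black line at the mean of the 4 libraries of a group, for the 11 genes with at least 1% of the reads and for ND1, ND3, ND4 and ND6. The groups overlap for all genes shown except ND1 and ND6, whose obesity points all lie above the control points.

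As a share of mitochondrial reads, which takes the total of each library out of the comparison, 2 genes were separated between groups and both were higher in obesity. Of all genes, 2.85% were higher and separated when scaled in this way. ND6 had 0.110%, 0.115%, 0.0708% and 0.0549% of mitochondrial reads in control and 0.276%, 0.180%, 0.160% and 0.189% in obesity. ND1 had 0.968%, 0.749%, 0.804% and 0.561% in control and 1.09%, 1.31%, 1.08% and 1.25% in obesity. In a fit with mitochondrial reads as the library size edgeR called neither gene (ND6 log2 fold change 1.201, ND1 0.62), and this scaling moved the median of all genes to 0.40. ND6 is the only protein gene on the minus strand, and its deeper site at 13475 overlapped the plus-strand ND5 cluster.

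At the level of sites, edgeR called 0 of 82 mitochondrial sites at an adjusted p under 0.1, where 0.00135% of all sites (1 site) were called. DESeq2 called 0 of the 82 as well (0.0136% of all sites). By unadjusted p under 0.05 there were 6 sites (7.32%), against 3.14% of all sites. Of these 2 were higher (1.72% of all sites) and 4 lower (1.41%). The log2 fold change was below 0 at 51 sites (62.2%), against 47.6% of all sites, and the median over the 82 sites was -0.15 while that of all sites was 0.05. The lean moved with single libraries, since the median was 0.06 without control library 3 and -0.38 without obesity library 2. With the replicate block 0 of the 82 were called (0.00541% of all sites) and 15 had an unadjusted p under 0.05 (18.3%), against 6.09% of all sites. Without the libraries numbered 2 the blocked fit called 8 mitochondrial sites, all lower, among 366 of all sites. They were both Rnr2 sites, Trnw at 4687, COX2 at 7693, COX3 at 9383, ND5 at 13471, CYTB at 14134 and the antisense ND3 site at 9497.

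**Figure D3:**
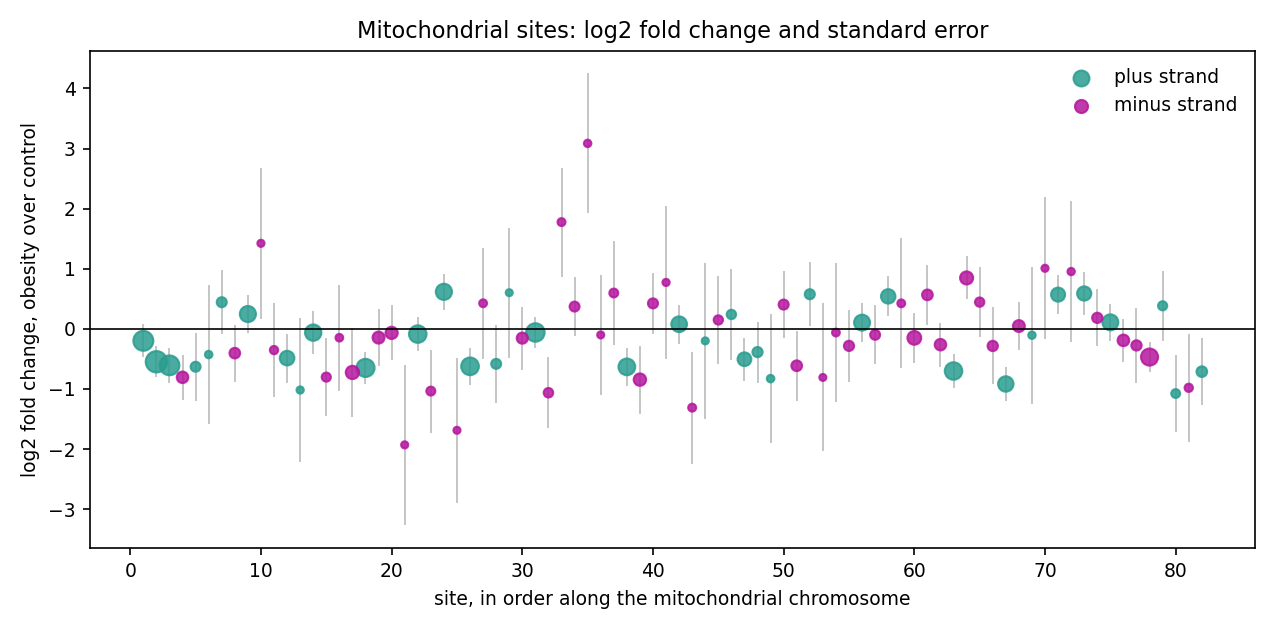
Log2 fold change of obesity over control at the 82 mitochondrial sites, in their order along the chromosome. Grey lines give the standard error derived from the edgeR test, and a larger marker shows a site with more reads. The 11 sites with at least 1% of mitochondrial reads lie between -0.70 and -0.06, 5 of them above 0 when scaled to mitochondrial reads, and the farthest point is the antisense COX3 site at 3.09, which has 37 reads.

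The sites with at least 1% of mitochondrial reads were those of Rnr1 (959), Rnr2 (1243 and 2670), ND2 (4042), Trnw (4687), COX1 (5852), COX2 (7693), ATP6 (7889), COX3 (9383), ND5 (13471) and Trnp (15345). Their log2 fold changes ran from -0.70 (SE 0.29) at ND5 to -0.06 (SE 0.26) at ATP6. The Rnr2 sites stood at -0.55 (SE 0.26) and -0.61 (SE 0.29), and Rnr1 at -0.20 (SE 0.27). The Rnr2 site at 1243 had 35361, 46310, 53889 and 49683 reads in control and 35112, 40609, 30387 and 32013 in obesity. The largest site of COX1, which encodes the catalytic subunit of cytochrome c oxidase, had 3067, 2196, 2246 and 1594 reads against 2129, 2843, 2040 and 2052, and all 4 obesity values lay within the control range.

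The lower sites of smallest unadjusted p were CYTB at 14134, Trnw at 4687 and ND5 at 13471. CYTB at 14134 had 733, 714, 640 and 560 reads in control and 355, 458, 314 and 363 in obesity, so every obesity library lay below every control library. Its log2 fold change was -0.92 (SE 0.28, edgeR quasi-likelihood test, adjusted p = 1.00), and in the blocked fit it was -0.96 (SE 0.22, adjusted p = 0.202). ND5 at 13471 had 2216, 2891, 3135 and 2288 reads in control and 1290, 2166, 1711 and 1850 in obesity.

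The higher sites of smallest unadjusted p were the antisense COX3 site at 8784, ND6 at 13475 and COX2 at 7149. The COX3 site had 0, 0, 2 and 1 reads in control and 9, 6, 15 and 4 in obesity. Its log2 fold change was 3.09 (SE 1.17), and edgeR did not call it. Its total of 37 reads was close to the lowest of the table. ND6 at 13475 had 83, 109, 75 and 46 reads in control and 186, 165, 109 and 136 in obesity, where the lowest obesity library equalled the highest control library. COX2 at 7149 had 682, 680, 753 and 526 reads in control and 1025, 1435, 909 and 951 in obesity, with no overlap in reads, although its CPM overlapped. In CPM 4 of the 82 sites were separated between groups (4.88%), against 3.11% of all sites.

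For each site the share of its gene's reads on that strand was computed, a comparison added after the site counts had been seen. It covers 32 sites of 11 mitochondrial genes and does not depend on the depth of a library or on its mitochondrial share. The groups were separated at 9 of these sites (28.1%), against 2.79% of all sites of genes with several sites. Among sites with at least 1000 reads they were separated at 8 of 15, against 4.39%. All 9 lay in COX2, ND5 and CYTB. The sites of a gene share their denominator, so these 9 are not independent of each other, and in COX2 the 2 sites are mirror images.

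COX2 had 2 plus-strand sites, at 7149 (7068 to 7415) and downstream of it at 7693 (7427 to 7711). The upstream site held 17.2%, 16.4%, 20.2% and 18.8% of COX2 reads in control, and 35.3%, 32.4%, 37.2% and 35.5% in obesity. Control libraries spanned less than 4 points and obesity libraries less than 5, while the group means differed by 16.9 points. Each pair of same-numbered libraries showed the difference, by 15.99 to 18.1 points. The total of COX2 reads overlapped between groups, with a log2 fold change of -0.25 (SE 0.24) for the gene.

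ND5 had 4 plus-strand sites. The most downstream of them, at 13471, held 73.4%, 73.6%, 73.3% and 77.1% of ND5 reads in control and 60.0%, 58.7%, 58.8% and 64.1% in obesity. The upstream sites at 12307 and 12726 made up the difference. The site at 12307 held 19.3% ± 2.13 in control and 27.7% ± 2.43 in obesity (SD, n = 4). The site at 12726 held 7.12%, 4.94%, 5.70% and 5.999% in control against 10.5%, 12.1%, 10.6% and 10.99% in obesity. The site at 12073 held less than 1% of ND5 reads in every library and was also higher in obesity (0.412% ± 0.108 against 0.795% ± 0.193).

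Among the sites assigned to CYTB the pattern was another. Of these 5 plus-strand sites the most upstream, at 14134 (14102 to 14158), was lower in obesity. This site overlapped the minus-strand Trne cluster (14127 to 14201), and its place inside CYTB, on which this pattern rests, was not examined. It held 38.7%, 38.1%, 36.3% and 43.1% of CYTB reads in control and 24.5%, 19.9%, 20.5% and 22.8% in obesity. The sites at 14380 and 14649 were higher, with 9.51% ± 1.02 and 10.5% ± 2.28 in control against 15.0% ± 0.766 and 16.6% ± 1.08 in obesity. The most downstream site, at 14876, held 40.7% ± 3.25 against 46.2% ± 1.28, and its groups overlapped. The total of CYTB reads had a log2 fold change of -0.02 (SE 0.22).

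**Figure D4:**
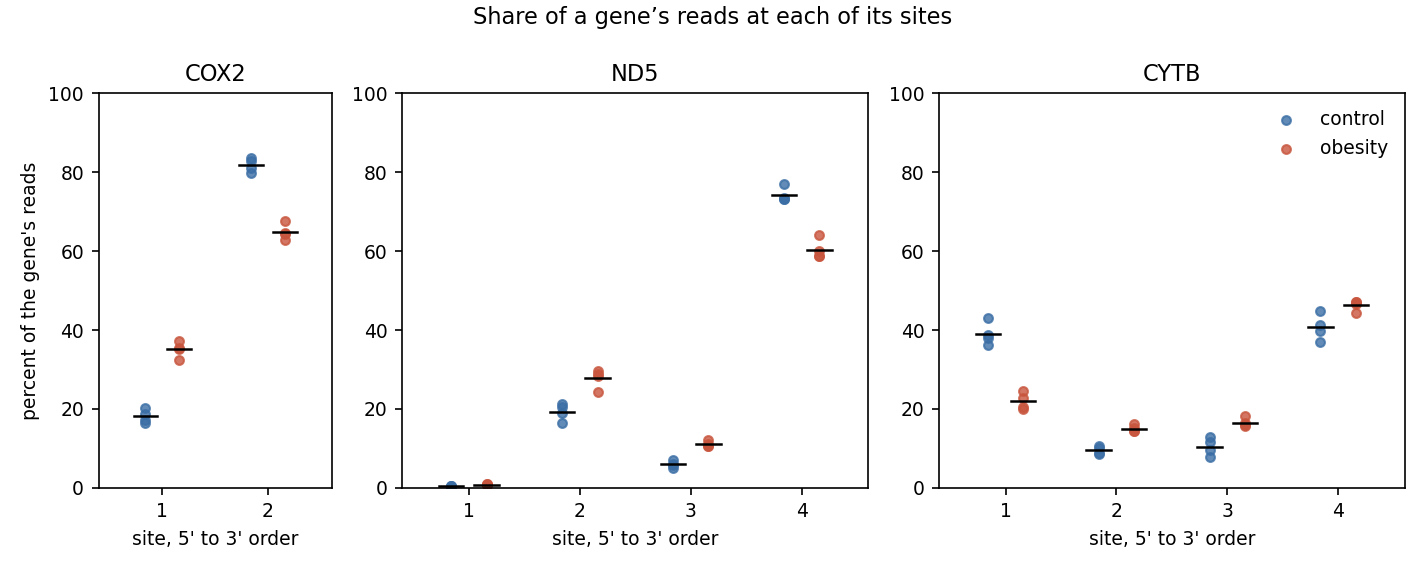
Percent of the plus-strand reads of COX2, ND5 and CYTB at each site with at least 100 reads in all, from the most upstream to the most downstream site, with a point for each library and a black line at the group mean (n = 4 libraries per group). Obesity points lie above control points at the upstream COX2 site and at the ND5 sites before the last, and below them at the last ND5 site and the first CYTB site.

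These shares were tested with limma on the log2 ratio of a site to the other sites of its gene, over all 58573 sites of genes with several sites. Without the block 0 sites were called (0% of all sites, adjusted p = 1.00 at COX2), and 8 of the 32 mitochondrial sites had an unadjusted p under 0.05 against 3.8% of all sites. With the replicate block 4 of the 32 mitochondrial sites were called against 0.012% of all sites (7 sites). By unadjusted p under 0.05 there were 8 of the 32 in this fit, against 7.92% of all sites. The called sites were both COX2 sites (log2 ratio 1.29 and -1.29, SE 0.13, limma adjusted p = 0.00678), CYTB at 14134 (-1.19, SE 0.16, adjusted p = 0.0560) and ND5 at 13471 (-0.92, SE 0.13, adjusted p = 0.0560).

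The size of these differences held when any library was left out of the fit without the block, from 1.23 to 1.35 at the upstream COX2 site. The calls were less steady. Fits without a number hold fewer libraries, so a lost call alone does not show a smaller difference. The COX2 calls remained without the libraries numbered 3 (adjusted p = 0.0276) and ended without those numbered 1, 2 or 4 (adjusted p = 0.181, 0.161 and 0.129). The calls at CYTB and ND5 ended whichever number was left out. A related test, diffSpliceDGE of edgeR, sets the fold change of a site against that of its whole gene and not of its other sites. It called 0 of the 32 sites in either fit (0% of all sites without the block and 0.00683% with it). Under it 0 of the 32 had an unadjusted p under 0.05 without the block (1.73% of all sites) and 4 with it (3.82%). The CYTB cluster at 14134 overlapped a minus-strand cluster of Trne, and the ND5 cluster at 13471 overlapped 6 minus-strand clusters, 3 of them antisense ND5 sites.

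The sites of the other 8 genes with several sites overlapped between groups. Rnr2 at 2670 held 25.2%, 25.7%, 22.5% and 22.0% of Rnr2 reads in control and 18.5%, 26.6%, 23.3% and 20.5% in obesity. Of the sites assigned to ND2 the most downstream, at 4042, varied more within control, from 61.4% to 87.5%, than between the group means of 73.1% and 77.5%. These shares leave out the Trnw cluster at 4687, which covered antisense sites assigned to ND2. ND1 read ends lay almost wholly in the cluster at 2910, with 93.4% to 96.0% in control and 93.2% to 97.0% in obesity. ND4, whose deepest site is at 10220, kept 85.3% to 89.6% and 84.7% to 90.9% of its reads there.

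Nuclear genes of the same organelle were read beside the mitochondrial ones. Of 79 nuclear oxidative phosphorylation genes 68 were measured, and 0 were called by edgeR. Of the 68, 58 had a log2 fold change below 0 (49.9% of all genes did). By unadjusted p under 0.05, 9 were lower and 0 higher, against 2.58% and 2.54% of all genes. Their median was -0.36 where that of all genes was 0.00. The blocked fit, in which 0.277% of all genes were called, called 2 of the 68 lower, Cox6a1, a subunit of cytochrome c oxidase (log2 fold change -1.01, SE 0.21, edgeR adjusted p = 0.0606), and Atp5c1, a subunit of ATP synthase (-1.03, SE 0.23, adjusted p = 0.0802). By unadjusted p under 0.05, 22 of the 68 were lower and 0 higher in the blocked fit, against 6.16% and 4.76% of all genes. Both calls ended without the libraries numbered 3 or 4, and that of Atp5c1 also without those numbered 1. Without those numbered 2 the blocked fit called 12 genes of the lists of mitochondrial functions, all lower, among 563 of all genes. In the fit without the block Atp5c1 stood at -1.01 (SE 0.29), and the genes above 0 with the smallest unadjusted p were Sdhd (0.34, SE 0.52) and Atp5h (0.20, SE 0.31). The 24 mitochondrial genes had a median of -0.13 in the same fit.

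There were 3.22, 3.16, 3.07 and 2.56 protein-coding mitochondrial reads for each read of the nuclear oxidative phosphorylation genes in control, and 3.41, 3.94, 2.58 and 3.73 in obesity. On the log2 scale the obesity mean was 0.17 higher, less than the spread between libraries (pooled SD 0.22), and the groups overlapped. It was 0.10 without obesity library 2 or without control library 4, and 0.30 without obesity library 3. Against all nuclear reads instead, the same protein-coding reads were 0.23 lower on the log2 scale (log2 values -6.22 ± 0.274 and -6.45 ± 0.455, SD, n = 4).

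The nuclear factors that copy, transcribe and process mitochondrial DNA and RNA were mostly shallow. Of them edgeR called 0 without or with the block (0% and 0.277% of all genes). Without the block Mterf1 alone had an unadjusted p under 0.05, where 5.12% of all genes did. With the block Mterf1, Lrpprc and Hsd17b10 did, where 10.9% of all genes did. Of 29 transcription and RNA processing factors 22 were measured, with a median log2 fold change of -0.05. Mterf1, which binds mitochondrial DNA, was at 0.58 (SE 0.26), and Lrpprc, which stabilises mitochondrial mRNAs, was at 0.53 (SE 0.26). Polrmt, the mitochondrial RNA polymerase, was at -1.11 (SE 0.80) with 0 to 24 reads per library, and Hsd17b10, a subunit of mitochondrial RNase P, was at -2.15 (SE 1.13) with 0 to 13 reads. Of 17 replication factors 8 were measured (median -0.14). Among these the topoisomerase Top1mt (-1.71, SE 0.84) and the helicase listed as Peo1 (-0.38, SE 0.31) stood below 0, and the nuclease Exog (1.26, SE 1.07) and the polymerase Polg (0.57, SE 0.66) above it. Of 13 biogenesis regulators 12 were measured (median 0.12), with Nrf1 at 0.28 (SE 0.26), Gabpb1 at 0.97 (SE 0.64), Pprc1 at -1.16 (SE 0.96) and Sirt1 at -0.77 (SE 0.66).

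Markers of other cell types were read over whole lists, and part of them moved with the mitochondrial share. The 11 oligodendrocyte markers all had reads and a log2 fold change below 0 (median -0.18, 0 called), where 49.9% of all genes lay below 0. By unadjusted p under 0.05, 2 of the 11 were lower, against 2.58% of all genes. The summed level of the 11 markers was 17729 to 23180 CPM in control, and it was 13684 to 21504 in obesity. The summed level of 10 astrocyte markers was 3571 to 4763 in control and 2681 to 4115 in obesity, and that of the 5 measured microglia markers was 88.9 to 137 and 45.8 to 115. In each of these 3 lists control library 3 was the highest control library and obesity library 2 the highest obesity library, as in the mitochondrial share. The nuclear oxidative phosphorylation genes, which mark no cell type, ranked these libraries in the same way. Their summed level was highest in control library 3 (5884 CPM) and in obesity library 2 (5066 CPM) of each group. Neuron markers (9 of 10 measured) summed to 6804 to 9728 in control and 5930 to 8941 in obesity, with control library 3 the lowest of its group and obesity library 2 not the highest. Red blood cell markers (2 of 7 measured) summed to 19.4 to 46.3 and 15.0 to 64.0, pituitary markers (3 of 7) to 17.9 to 56.0 and 6.13 to 127, and choroid plexus and ependyma markers (2 of 8) to 1.34 to 11.4 and 1.17 to 104. The part of these lists in the mitochondrial values was not tested.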

How the data were processed

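The authors deposited a table of whole-number read counts per polyadenylation site, with no normalization. The processing notes name Bowtie2 2.2.3 and Rnor_6.0, and other steps are not given in the sources used here. All 82 sites on the mitochondrial chromosome were taken, and 1 line without a site was left out. The members and gene lists were chosen with earlier results of these data known. The edgeR (4.0.16) quasi-likelihood test with TMM scaling was run over all 73922 sites and over 12255 genes, each gene being the sum of its sites on the strand with most reads. DESeq2 (1.42.0), other library sizes, a filter on low counts, a replicate block and leaving out each library were alternatives. An adjusted p (Benjamini-Hochberg) under 0.1 was a call. The SE of an edgeR log2 fold change was its absolute value divided by the square root of the F statistic of the test. Same-numbered libraries deviated together (correlations 0.268 to 0.382 over sites, others -0.200 to -0.0387). Over genes they were 0.224 to 0.330, others -0.174 to 0.0468. The numbers were therefore taken to pair the libraries, which is inferred from these counts, as the sample titles give only a number. Sites with at least 1% of mitochondrial reads, called sites, and the 3 higher and 3 lower sites of smallest p were named, as were, for the 4 lists of mitochondrial functions, the called genes and the 2 of smallest p in each direction, apart from 1 gene that is not reported here. Marker lists are given by sums and counts, with 4 hypothalamus markers, the 3 measured pituitary markers and Ttr named. The share of each site among its gene's reads was tested with limma (3.58.1) on log2 ratios with a pseudocount of 0.5. This comparison, and the sites named for it, were added after values had been seen. The fits were tested on simulated data. P-values measure the spread between these libraries.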

Additional observations from a re-analysis of the deposited data

Results flagged for a closer look

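Of 100 checks of a group of 4 libraries 6 found a library far from the other 3, where chance gives about 1 in 20, or 5. Obesity library 2 stood apart in the share of reads at mitochondrial sites (6.992%, others 3.855% to 4.343%), in CPM at the Rnr2 site at 2670 (10210, others 4502 to 4679) and in the CPM of COX3 (1118, others 609.1 to 662.9). Control library 3 had the lowest share of mitochondrial reads on the minus strand (2.709%, others 3.137% to 3.209%). Control library 4 had the highest share of ND5 reads at 13471 (77.11%, others 73.28% to 73.58%), which lies farther from the obesity libraries than the rest of its group. Obesity library 1 had the lowest share of CYTB reads at 14876 (44.34%, others 46.58% to 47.04%).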

How the results depend on the processing

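The replicate block changed calls as given in the report. It moved the mitochondrial genes called from 0 to 1, the list genes called from 0 to 2 (also 1 and 2 with nuclear reads as the library size), and the sites with a called share of gene reads from 0 to 4. Leaving out libraries or same-numbered pairs gave 0 to 8 called sites, 0 to 7 called genes, 0 to 12 called list genes and 0 to 2 called shares. Protein-coding reads per nuclear oxidative phosphorylation read stood at 0.1744 (log2), and at -0.2294 over all nuclear reads. The causes were not tested.

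The fits without the block on all libraries called 0 mitochondrial sites, genes and shares, so every direction that turned was of a value uncalled there. Of the genes that turned, COX2, ND5 and Trnp were called lower in the blocked fit without number 2. With mitochondrial reads as the library size, without and with the block, the log2 fold change was 0.2377 and 0.2561 at Rnr1 959, 0.2677 and 0.3202 at ND2 4042, 0.2833 and 0.3388 at COX1 5852, 0.3414 and 0.3539 at ATP6 7889, and 0.001721 without it at Trnp 15345. For genes it was 0.2391 and 0.2572 (Rnr1), 0.3422 and 0.355 (ATP6), 0.0533 and 0.0643 (COX2), 0.03091 and 0.02593 (ND5), 0.2842 and 0.3398 (COX1), 0.3023 and 0.3209 (CYTB), 0.2206 and 0.2259 (ND2), and 0.003025 without it (Trnp). ATP6 was also at 0.004811 with DESeq2 size factors, 0.004766 in the DESeq2 test and 0.003235 with nuclear reads as the library size. Leaving libraries out gave -0.5098 to 0.1083 (Rnr1 959), -0.4851 to 0.1604 (ND2 4042), -0.3554 to 0.08499 (COX1 5852) and -0.2919 to 0.105 (ATP6 7889), and for genes -0.4384 to 0.1632 (Rnr1), -0.2135 to 0.1597 (ATP6), -0.2846 to 0.1394 (COX1), -0.2928 to 0.1369 (CYTB) and -0.4429 to 0.01972 (ND2).

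The rRNA share of mitochondrial reads differed by -2.65 points, and by -4.24 without control library 1 and -1.001 without control library 4. The minus-strand share differed by 0.252 points, and by 0.106 without obesity library 1 and 0.429 without obesity library 2. The alternatives that place sites in annotated genes were not run, since no annotation of this chromosome was used here. Of the 82 sites 28 had under 100 reads in all, which limits what could be detected there.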
